A study of Mus musculus with 14 samples.

Results

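The genes described here encode the secreted and membrane-bound metalloproteinases that cut the extracellular matrix, together with their inhibitors. Members were all protein-coding genes of GENCODE M21 whose symbol is Mmp, Adamts, Adamtsl or Timp followed by a number, which gave 50 of 21938 genes: 22 Mmp, 19 Adamts, 5 Adamtsl and 4 Timp genes on 18 chromosomes. Around them lay 957 of the 160144 H3K4me1 sites of the series, counted over the promoter (± 1 kb around the most upstream TSS), the rest of the gene and 50 kb to either side. In counts by part, a site that crosses a border between parts was counted on each side of it. Numbers of body sites can therefore include the promoter site. The values are positions of sites, and no expression or signal was measured for these genes here.

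NG3 cells are a clone of immortalized mouse embryo fibroblasts. Exon 4 of endogenous Ash2l is deleted in them and lentivirally expressed human ASH2L carries the FKBP-HA2 tag, so that dTAG-13 leads to degradation of FKBP-HA2-ASH2L. All libraries share this genotype. H3K4me1, deposited by complexes that hold ASH2L, was measured by ChIP-seq without dTAG-13 (labelled WT) and after 30 min or 2, 4, 8 or 16 h of dTAG-13, in 2 replicates for each of the 6 conditions, with 2 input libraries, from untreated cells and from cells treated for 16 h. The 12 H3K4me1 libraries were combined by the authors into a single set of broad peaks, the sites, each with a chromosome, a start and an end. Neither a time point, a replicate nor a depth can be recovered from such a set, so that a site means a peak in some or all samples, and no difference between treated and control cells was tested. The table holds no levels, and the fibroblast label could therefore not be checked against marker genes.

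MMPs are zinc-dependent endopeptidases that are made as inactive precursors and together degrade collagens, elastin, laminins and other matrix proteins. ADAMTS proteases carry thrombospondin repeats and process procollagens, the proteoglycans aggrecan and versican, COMP or von Willebrand factor, while ADAMTS-like proteins keep the ancillary domains without the protease. TIMPs bind the active site of the proteases and block it. Fibroblasts are a main source of several of these enzymes in connective tissue, where growth factors and inflammatory cytokines control their transcription. H3K4me1 is found at enhancers, active or primed, and on the shoulders of promoters.

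Most of the proteases and inhibitors had an H3K4me1 site of the pooled set at their promoter. The paper reports that gains of H3K4me1 after dTAG-13 lay almost only at promoters. A promoter site here may therefore stem from treated cells alone and need not be present in untreated cells. A site overlapped the promoter window of 42 of the 50 genes, or 84% (95% Wilson interval 71.5 to 91.7%, for counting only), and of 63.9% of all protein-coding genes. By family these were 17 of 22 Mmp genes, 16 of 19 Adamts genes, all 5 Adamtsl genes and all 4 Timp genes. A single site overlapped the window in 35 genes, 2 sites in 6 genes (Mmp10, Mmp13, Mmp27, Adamts1, Adamts10 and Adamtsl4) and 3 sites in Timp1. The 8 genes without a site there were Mmp7, Mmp8, Mmp12, Mmp20, Mmp21, Adamts13, Adamts16 and Adamts20.

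These 8 genes include 4 of the 9 Mmp genes of the cluster on chromosome 9 and several whose products are known from other cells than fibroblasts. Other members known from such cells had a site over the TSS, among them the leukocyte genes Mmp9 and Mmp25. Mmp20 encodes enamelysin of the enamel-forming cells, and its nearest site began 3323 bp downstream of the TSS. Mmp12, the macrophage elastase, had its nearest site 8109 bp upstream. Mmp8, the neutrophil collagenase, had it 6921 bp downstream, and Mmp7, the epithelial matrilysin, 12094 bp upstream. Mmp21, an MMP known for its part in left-right patterning of the embryo, had the most distant one, 28036 bp upstream. The nearest site of Adamts13, which cleaves von Willebrand factor and is made mainly by stellate cells of the liver, lay 8069 bp upstream. Adamts20, a proteoglycanase of the developing skin, had its nearest site 7243 bp downstream of the first TSS, which starts a transcript not annotated as coding. Its annotated coding TSS, 61160 bp further down, lay in a site.

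The promoters were divided by CpG islands, stretches rich in CpG found by a score over the repeat-masked sequence. All 29 promoters with an island had a site, as did 93% of the 11802 island promoters among protein-coding genes. Without an island, 13 of 21 promoters had a site, 61.9% (95% Wilson interval 40.9 to 79.2%), whereas 30% of the 10136 such promoters of protein-coding genes did. Of these 21 genes, 9 are the Mmp genes of the chromosome 9 cluster, and among the other 12 a site was present in 8. All 8 members without a promoter site thus lack an island. The 13 island-free promoters with a site belonged to Mmp9, Mmp19, Adamts4, Adamts6, Adamts12, Adamtsl2, Timp1 and Timp4 and, in the cluster, to Mmp1b, Mmp3, Mmp10, Mmp13 and Mmp27. The intervals treat neighbouring genes as independent, which those of the cluster are not.

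A site commonly lay across the TSS itself rather than beside it. The TSS was covered in 39 of the 50 genes, or 78%, and in 39.5% of all protein-coding genes. For the promoters with an island these shares were 28 of 29, or 96.6%, and 56.6%. The exception was Mmp11, the stromelysin first found around breast tumours, whose site began 308 bp downstream of the TSS in a stretch that Chchd10 overlaps. In the last 100 bp before the TSS, an average of 93.7% of bases were covered in the island promoters of the 29 genes and 55.4% in those of all protein-coding genes. The profile of the latter dipped at the TSS and reached its maximum of 83.2% in the bin that starts 300 bp downstream. The profile of the 29 genes was already at its maximum of 96.6% in the first 100 bp. It had the same value in the bins that start 400 and 500 bp downstream. Genes without an island reached 52.4% in the members, and 21.2% in all such protein-coding genes, in the bin that starts 100 bp downstream.

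**Figure D1:**
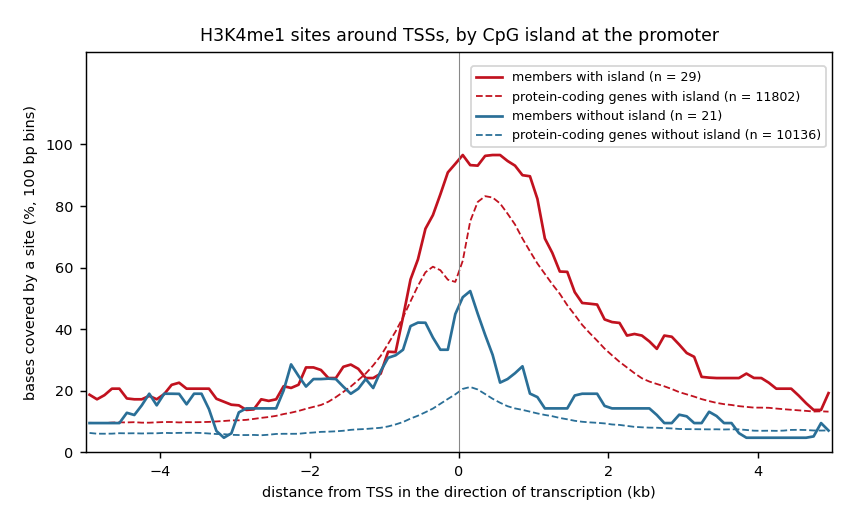
Share of bases covered by H3K4me1 sites (vertical axis, %, in 100 bp bins) by distance from the TSS in kb in the direction of transcription. Solid lines are the matrix protease and inhibitor genes, dashed lines all protein-coding genes, red with and blue without a CpG island within 1 kb of the TSS; the solid red line has no dip at the TSS, where 93.7% of bases in the preceding 100 bp were covered against 55.4%.

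Sites over the TSS reached farther into the gene than away from it. Their upstream edge lay at a median of 677 bp from the TSS and their downstream edge at 1302 bp, and 33 of the 39 sites extended farther downstream. Reach was not measured for all protein-coding genes, but their coverage leaned the same way. They had an average of 33.5% of bases covered in the 1 kb upstream and 48.3% in the 1 kb downstream. The same averages over all 50 members were 53.0 and 68.65%. Of the 6 that extended farther upstream, the longest reach was that of Adamts14, whose 7320-bp site ran from -5713 to 1606 bp. All 2001 bases of the window were covered in 8 genes, or 16%, against 6.84% of protein-coding genes. These were Mmp2, Mmp14, Mmp23, Adamts4, Adamts5, Adamts12, Adamts14 and Adamtsl3. Over the 42 promoters with a site, a median of 1561.5 bp was covered, compared with 1330 bp over the protein-coding genes with a site.

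**Figure D2:**
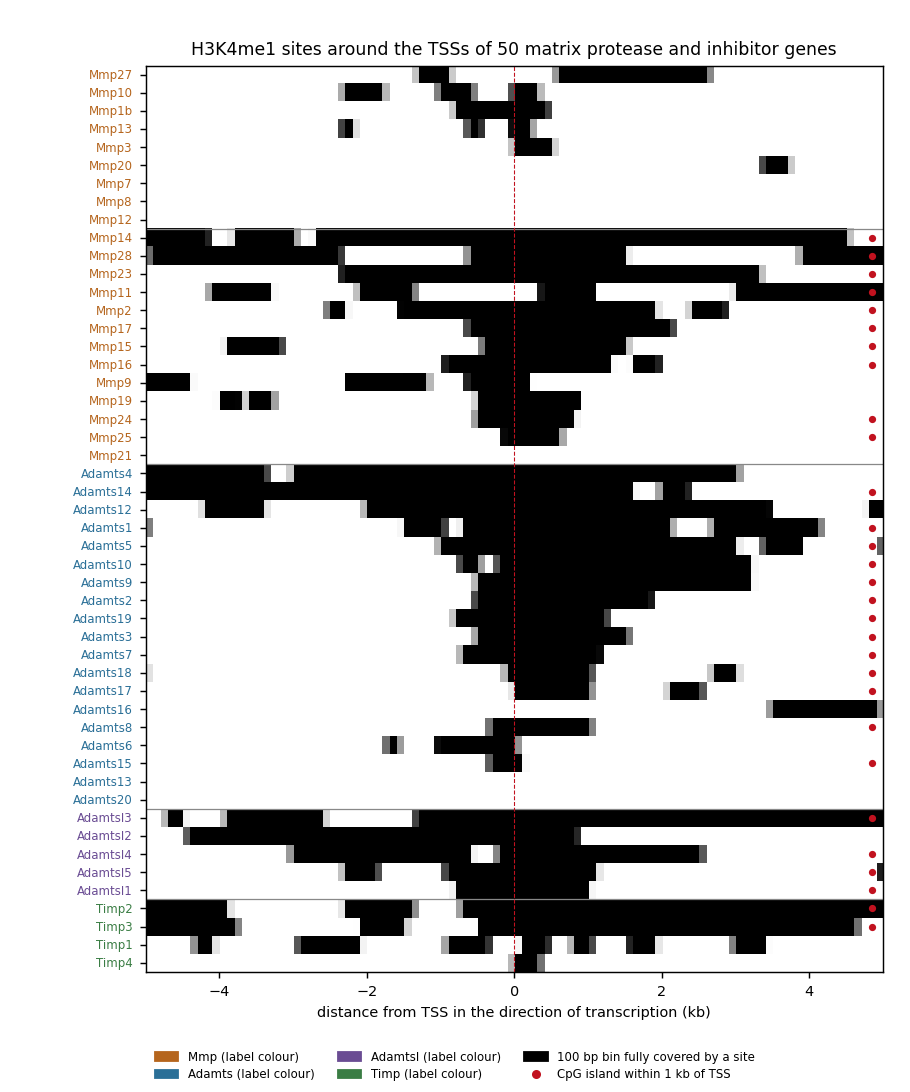
H3K4me1 sites from 5 kb upstream to 5 kb downstream of the TSS of the 50 genes, 1 row per gene, in 100 bp bins; black bins are fully covered, label colours give the family, a red point marks a CpG island and horizontal lines separate the chromosome 9 cluster (top 9 rows) and the families. Sites of the cluster are narrow, whereas those of Mmp14, Adamts14, Adamtsl3 and Timp2 fill most of the rows.

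Among the Mmp genes outside the cluster, 12 of 13 had a site at the promoter. The 6 membrane-type MMPs (Mmp14, Mmp15, Mmp16, Mmp17, Mmp24 and Mmp25), which act at the cell surface, all had an island, a site and a covered TSS. Mmp14, the membrane-type collagenase that also activates pro-MMP2, had the widest promoter site of any Mmp gene, 7240 bp from -2705 to 4534 bp. A second site of 6939 bp ran from 7883 bp downstream of the TSS past the 3′ end of this 13753-bp gene, so that 73.7% of the gene body was covered. In total 30581 bp of the promoter, body and flanks of Mmp14 were covered, the highest value of the Mmp family. Mmp25, a leukocyte MMP, had only a site of 841 bp at the promoter and none in the rest of the gene, although 13 sites in its flanks brought the covered bases to 16458 bp. The only site in the body of Mmp17 was its promoter site, which reached to 2176 bp downstream of the TSS.

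Mmp16 differed from the other membrane-type genes in its surroundings. Its promoter site measured 2293 bp, but its 265252-bp body held 7 sites, 2.64 per 100 kb, and no site lay in the 50 kb on either side. The sum of 4706 bp was the lowest of the family outside the cluster. Mmp24 and Mmp15 lay between these, with 29134 and 11112 bp.

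The gelatinases Mmp2 and Mmp9, which degrade denatured collagen and basement membrane collagen, both had a site over the TSS. Mmp2, the gelatinase made by fibroblasts, had a 3517-bp promoter site and 8 sites in the 25129 bp of body, which covered 43.1% of it. The widest, of 6582 bp, ran from 17525 to 24106 bp. In Mmp9, the gelatinase of leukocytes and of activated cells, the promoter site measured 890 bp (-689 to 200 bp) and 1 site of 1431 bp lay in the body. The flanks held 17 sites at Mmp2 and 10 at Mmp9, and the covered bases in all parts were 22945 and 13240 bp.

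The remaining Mmp genes outside the cluster ranged widely. In Mmp28 (epilysin), 6 body sites covered 48.4% of the 21303-bp body, including a 5002-bp site in intron 1. Mmp11 had 3 body sites that covered 42.4%. Mmp19 had a promoter site of 1428 bp without an island and none in its body, but 16 sites in its flanks, among them a 7233-bp site past its 3′ end, where Tmem198b overlaps the gene end. The whole of the short Mmp23, 2730 bp, lay in a 5725-bp site. Mmp21 had no site in promoter or body and 5457 bp covered in the flanks, and Mmp17 had 5707 bp covered in all. Over the 13 genes the covered bases in promoter, body and flanks ranged from these 4706 bp in Mmp16 to 30581 bp in Mmp14.

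The cluster on mm10 chr9:7272514-7699585 places 9 of the Mmp genes within 427072 bp. In genome order these are Mmp13, Mmp12, Mmp1b, Mmp3, Mmp10, Mmp8, Mmp27, Mmp20 and Mmp7, all on the plus strand except Mmp1b. Mmp1a, which GENCODE M21 annotates as a polymorphic pseudogene and which is therefore no member, lies between Mmp3 and Mmp10. The cluster contained 25 sites, 5.85 per 100 kb, which covered 3.51% of its bases. Their median width was 516 bp and their widest measured 2104 bp, while the median over all sites was 603 bp. Of 282 windows of equal length along chromosome 9, the median held 29.5 sites (quartiles 8 and 45.75) with 4.96% covered, and 46.5% held fewer sites than the cluster.

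**Figure D3:**
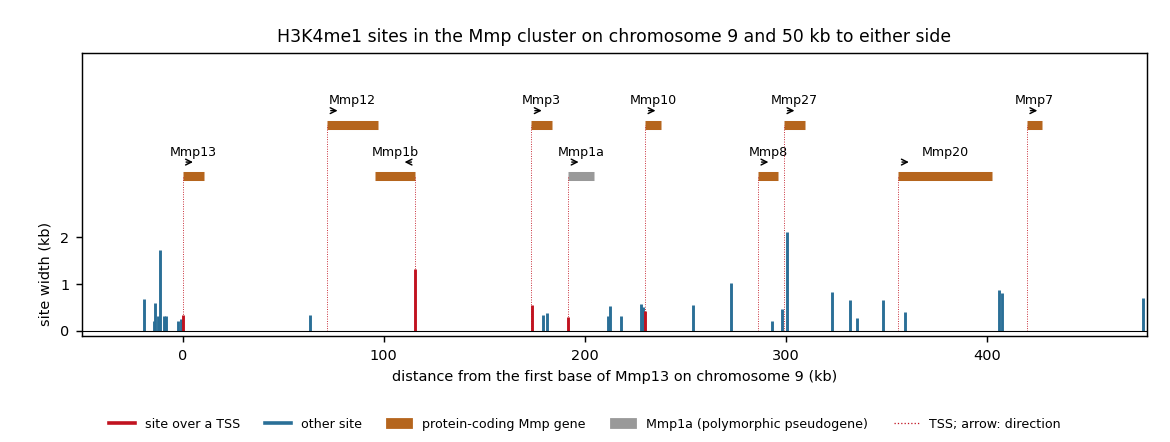
Map of the chromosome 9 cluster, with distance from the first base of Mmp13 in kb on the horizontal axis; bars above are genes, arrows give the direction of transcription, and vertical lines below are H3K4me1 sites with their height giving the width in kb (red over a TSS, blue elsewhere). Sites gather upstream of Mmp13 and Mmp10, and a stretch of 63177 bp between the Mmp13 start and the next site holds none.

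The sites followed particular genes of the cluster. A site lay over the TSSs of the collagenase genes Mmp13 and Mmp1b, of the stromelysin genes Mmp3 and Mmp10 and of Mmp1a. None lay over the TSSs of the other 5 member genes, among them the collagenase gene Mmp8. The site at Mmp13 (collagenase 3) measured 340 bp, from -95 to 244 bp. At Mmp3 (stromelysin 1) it measured 561 bp, from -34 to 526 bp. Mmp10 (stromelysin 2) had a 413-bp site from -75 to 337 bp and a second of 516 bp from -1058 to -543 bp. Mmp1b, 1 of 2 mouse counterparts of the human interstitial collagenase gene, had the widest, 1311 bp from -831 to 479 bp, and at Mmp1a a 284-bp site ran from -99 to 184 bp.

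Mmp27 had sites on both sides of its TSS but none over it. The upstream site measured 465 bp, from -1334 to -870 bp, and the downstream site, the widest of the cluster, ran from 551 to 2654 bp. Mmp8, Mmp12, Mmp20 and Mmp7 had no site within 1 kb of the TSS. In their bodies 1 site was found in Mmp8, of 200 bp, and 1 in intron 1 of Mmp20, of 408 bp, with none in Mmp12 and Mmp7. The body of Mmp3 held 2 sites, of 338 and 376 bp.

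Sites between the genes were grouped upstream of Mmp13 and of Mmp10. In the 50 kb before the cluster, 9 sites lay between -19690 and -417 bp from the Mmp13 TSS, the widest of them 1724 bp long from -11825 to -10102 bp. Upstream of Mmp10, 5 sites lay between -18428 and -543 bp. By contrast, the 63177 bp that follow the Mmp13 TSS site, which hold the rest of Mmp13, had none, and 1 site lay in the 50 kb past Mmp7. Within the cluster 14 of the 25 sites were centred between genes and 11 in a gene, the latter including 2 sites in AV064505, which lies upstream of Mmp7.

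Reads of 75 bases cannot be placed everywhere in the cluster. Of the 75-base words of the cluster 87.1% occur once in the chromosomes, and of those in the promoter windows 86.4% at Mmp1b and 92.7% at Mmp1a, while the windows of the other member genes had 98.7 to 100%. What part this has in the number of sites there was not tested. Without the 9 cluster genes, 37 of 41 genes, or 90.2%, had a promoter site.

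Short motifs were counted in the promoters of the cluster. In the 300 bp from 250 bp before to 50 bp after the TSS, TGANTCA, the AP-1 motif (either strand), was found in 6 of the 9 cluster genes and in 6.91% of protein-coding promoters, or 10.4% of those without an island. Mmp19 was the only other member with this motif. TATAAA was present in 7 of 9 cluster promoters, against 12.6% of protein-coding promoters and 19.8% of those without an island. AGGAAG, an ETS motif, occurred in 6 of 9 against 34.6% and 39.8% of these, and ACCACA, a RUNX motif, in 3 of 9 against 15.3% and 20.2%. No CpG island was found in the cluster promoters, and CpGs were rare, with a median of 0.333 per 100 bp and 3.67 in all protein-coding promoters.

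The motif and the sites were not matched gene by gene. All 4 member genes with a site over the TSS had TGANTCA and TATAAA, but so had Mmp20 and Mmp7, which had no site at the promoter, and the 3 genes without TGANTCA had no site over the TSS. Shown are the 250 bases before the RefSeq start site (GRCm38.p6) of these 6 genes and of Mmp12, which has neither motif, 5′ to 3′ in the direction of transcription with TGANTCA and TATAAA in capitals.

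Mmp13 (mm10 chr9:7272264-7272513, plus strand): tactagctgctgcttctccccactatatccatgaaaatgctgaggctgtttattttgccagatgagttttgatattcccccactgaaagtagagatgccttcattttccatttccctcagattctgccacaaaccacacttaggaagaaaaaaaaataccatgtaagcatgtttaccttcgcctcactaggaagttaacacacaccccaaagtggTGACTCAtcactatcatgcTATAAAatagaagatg
Mmp3 (mm10 chr9:7445572-7445821, plus strand): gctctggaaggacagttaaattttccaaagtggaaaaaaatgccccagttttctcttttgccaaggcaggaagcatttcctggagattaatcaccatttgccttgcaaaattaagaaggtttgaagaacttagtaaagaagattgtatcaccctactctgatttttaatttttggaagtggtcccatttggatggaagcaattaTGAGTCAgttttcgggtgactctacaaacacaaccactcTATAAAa
Mmp10 (mm10 chr9:7502092-7502341, plus strand): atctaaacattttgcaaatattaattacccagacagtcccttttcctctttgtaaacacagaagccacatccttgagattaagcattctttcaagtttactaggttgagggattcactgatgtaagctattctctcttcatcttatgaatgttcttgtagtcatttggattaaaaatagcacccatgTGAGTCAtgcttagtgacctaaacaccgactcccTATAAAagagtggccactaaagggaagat
Mmp1b (mm10 chr9:7388027-7388276, minus strand): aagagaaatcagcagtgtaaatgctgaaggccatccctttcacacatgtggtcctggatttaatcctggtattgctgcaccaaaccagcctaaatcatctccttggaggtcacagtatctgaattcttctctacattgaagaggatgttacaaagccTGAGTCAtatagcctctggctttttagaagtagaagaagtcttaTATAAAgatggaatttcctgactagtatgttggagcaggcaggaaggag
Mmp7 (mm10 chr9:7691840-7692089, plus strand): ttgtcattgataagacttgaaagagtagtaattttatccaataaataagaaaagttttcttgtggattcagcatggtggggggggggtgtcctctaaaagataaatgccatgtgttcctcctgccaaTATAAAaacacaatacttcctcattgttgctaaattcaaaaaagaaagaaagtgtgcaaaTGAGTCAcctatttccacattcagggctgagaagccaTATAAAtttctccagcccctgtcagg
Mmp20 (mm10 chr9:7627981-7628230, plus strand): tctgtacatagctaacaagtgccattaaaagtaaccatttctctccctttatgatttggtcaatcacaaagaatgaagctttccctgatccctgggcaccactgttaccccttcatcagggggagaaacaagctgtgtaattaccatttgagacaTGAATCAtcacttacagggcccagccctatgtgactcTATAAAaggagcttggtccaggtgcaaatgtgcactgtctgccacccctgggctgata
Mmp12 (mm10 chr9:7344147-7344396, plus strand): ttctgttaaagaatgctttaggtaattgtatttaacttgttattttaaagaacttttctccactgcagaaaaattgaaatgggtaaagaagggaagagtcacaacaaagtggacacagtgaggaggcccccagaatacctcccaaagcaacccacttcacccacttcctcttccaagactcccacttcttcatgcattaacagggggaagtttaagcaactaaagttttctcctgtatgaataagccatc

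Sites reached into these stretches to different extents. In Mmp13 the last 95 of the 250 bases lay in a site, which took in TGACTCA at -35 and TATAAA at -16 from the start site. In Mmp10 the last 65 bases did, which hold TGAGTCA at -63. The site at Mmp3 began at -34 and left out TGAGTCA at -46, although it held TATAAA at -7. In Mmp1b all 250 bases were in the site, with TGAGTCA at -93. In Mmp7, Mmp20 and Mmp12 no base was. Of the 50 genes 35 had an entry in the RefSeq promoter table. The RefSeq and GENCODE starts are the same base in Mmp13, Mmp3, Mmp7 and Mmp20, and the GENCODE TSS lies 10 bp downstream in Mmp10, 21 bp upstream in Mmp1b and 16 bp upstream in Mmp12.

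The same motifs were counted at the sites themselves. Within the central 200 bp, TGANTCA was present in 119 of the 957 sites, 12.4%, and in 12.7% of all sites. The shares for AGGAAG were 24.9% and 26.7%, those for ACCACA 18.6% and 16.8%, and those for TATAAA 8.46% and 9.39%. In the cluster and 50 kb to either side, none of the 35 sites had TGANTCA within the central 200 bp, and 11 had it elsewhere in the site. Whole sites were not searched outside this region, so the number 11 has no share over all sites to set beside it.

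The Adamts genes had a median length of 114010 bp, and 18 of 19 had a site in the body, Adamts15 being the exception. Of the procollagen N-proteinases, which trim fibrillar procollagens, Adamts2 had 27 body sites over 35662 bp, among them a site of 8289 bp in intron 3, and 42318 bp covered in all parts. Adamts3 had 15 body sites over 10350 bp and none in the flanks. Adamts14 had 6 over 2853 bp, among them the inner end of its 7320-bp promoter site.

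The proteoglycanases, the aggrecan- and versican-cleaving Adamts1, Adamts4, Adamts5, Adamts8, Adamts9, Adamts15 and Adamts20, had a promoter site in 6 of 7 genes. Adamts4 (aggrecanase 1) had the widest, 6076 bp from -3030 to 3045 bp and without an island, and 25862 bp covered in all parts. Adamts5 (aggrecanase 2) had a site of 4055 bp and Adamts9 of 3744 bp. Adamts1 had sites of 2854 and 587 bp at the promoter and 3 sites over 41.1% of its 8286-bp body. The narrowest was that of Adamts15, 476 bp from -371 to 104 bp. Adamts15 and Adamts8 lie head to head, 20109 bp apart, and the 734 bp covered in between belong to their 2 promoter sites. Between the neighbours Adamts1 and Adamts5, 53059 bp apart, 7 sites covered 3020 bp.

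Adamts12 and Adamts7, which cleave COMP, the cartilage oligomeric matrix protein, differed in extent. Adamts12 had the most covered bases of the family, 63673 bp, with 39 sites in its 283441-bp body and a promoter site of 5537 bp without an island. Its widest body site, 5716 bp, lay in intron 2. Adamts7 had a promoter site of 1936 bp, 7 body sites and 14448 bp covered in all.

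Adamts16 combined a promoter without a site with a body that was widely covered. Its 30 body sites covered 36931 bp or 32.7% of the body, out of 48257 bp in all parts, and 26.5 sites per 100 kb is more than 87.8% of protein-coding genes had. The widest, 9758 bp, lay at the 3′ end, from 103429 to 113186 bp downstream of the TSS of this 114010-bp gene. Its nearest site began 3452 bp downstream of the TSS. Adamts20, also without a site near its most upstream TSS, had 19 body sites, and Adamts13 had 1. Adamts17 and Adamts18, whose substrates are less known, had 29 and 25 body sites, promoter sites of 1068 and 1212 bp, and 37444 and 33587 bp covered in all.

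At the low end, Adamts10, a protease tied to fibrillin microfibrils, had 4063 bp covered with a promoter site of 3480 bp and 1 site in its flanks. Adamts19, an orphan protease, had 5168 bp covered, with a promoter site of 2111 bp and 4 body sites in 216393 bp. Adamts15 with 5823 bp, Adamts8 with 7670 bp and Adamts3 with 11895 bp followed, and Adamts1 was the sixth lowest with 12243 bp. All 6 had an island and a site at the promoter.

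The Adamtsl genes, which encode matrix proteins without the protease domain, held the 2 highest values of all 50 genes. Adamtsl3 had 88718 bp covered, with a promoter site of 8037 bp from -1379 to 6657 bp and 76 sites over 27.9% of its 277756-bp body. Adamtsl1, at 914214 bp the longest gene of the group, followed with 70219 bp and 86 body sites, 9.42 per 100 kb. In Adamtsl4, a gene of 11717 bp that is known for its part in lens suspension, the covered 45319 bp lay mainly outside the gene, in 27 flank sites, more than in 99.5% of protein-coding genes. Adamtsl5 had 23737 bp covered. Adamtsl2, which binds the latent TGFβ-binding protein, had the lowest value, 11126 bp, with a 5357-bp promoter site from -4470 to 886 bp and no island. Its neighbour Adamts13, 69750 bp away, had no promoter site.

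The inhibitors separated into Timp2 and Timp3 with wide sites and Timp1 and Timp4 with narrow ones. Timp2, the inhibitor that also takes part in the activation of pro-MMP2 by MMP14, had the widest site at any of the 50 genes, 11841 bp from -747 to 11093 bp. Of all sites in the table, 93, or 0.0581%, were as wide or wider. With the other sites it covered 54.0% of the Timp2 body, although Cep295nl, on the same strand, starts within the gene. Timp3, the inhibitor that stays bound to the matrix, had a promoter site of 5164 bp and body sites of 6919 and 5987 bp, and 47.1% of its body was covered. In total 53134 bp were covered at Timp2 and 45004 bp at Timp3, and both promoters have an island.

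Timp1, the inducible inhibitor, was covered in fragments. Of its 3 promoter sites, of 628, 392 and 317 bp, the first ended at -318 bp and the second began at 93 bp, so that the TSS lay in a gap. Its 3569-bp body held 3 sites, which is 84.1 per 100 kb over a very short body, and 1 of them reaches in from the promoter window. Timp4 had a single site of 402 bp at its promoter, from -39 to 362 bp, and none in its body. Timp1, Timp3 and Timp4 each lie inside a synapsin gene on the opposite strand, Syn1, Syn3 and Syn2, so that sites in their bodies and flanks lie in those genes as well. The totals for these inhibitors were 9249 bp for Timp1 and 13014 bp for Timp4.

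**Figure D4:**
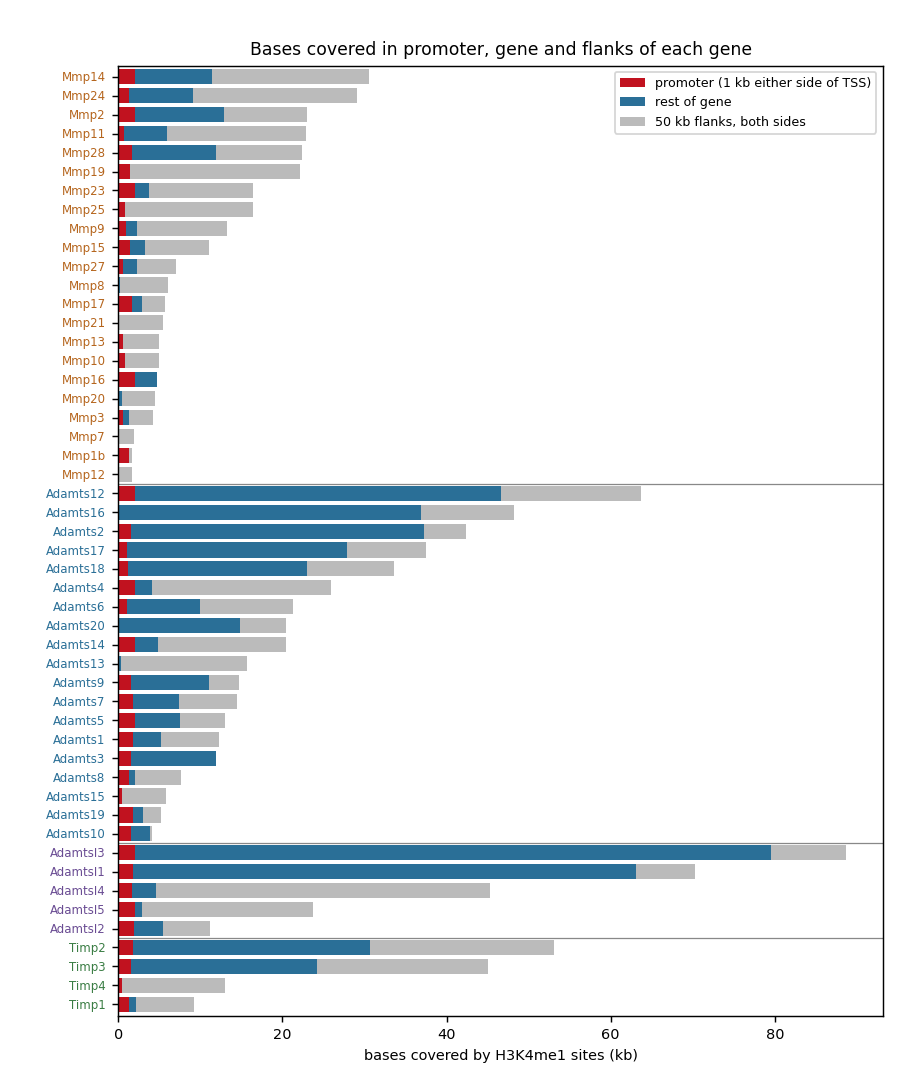
Bases covered by H3K4me1 sites at each of the 50 genes in kb (horizontal axis), stacked as promoter (red), rest of the gene (blue) and both 50 kb flanks (grey), sorted within families. Adamtsl3 has the longest bar, 88718 bp, and Mmp12 and Mmp1b of the chromosome 9 cluster the shortest, 1648 bp each.

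Across the group, gene bodies held sites in 40 of 50 genes, 80%, compared with 68.4% of the protein-coding genes that have a body. Of the 10 genes without one, 5 are in the chromosome 9 cluster. In Mmp17, Mmp23, Adamts4 and Adamts10 the only body site was the promoter site reaching in. When the centre of a site had to lie in the body, the number of genes was 36. The median density was 9.82 sites per 100 kb (quartiles 2.69 and 17.6), and 7.28 per 100 kb (quartiles 0 and 16.8) over all protein-coding genes, and the median share of body bases covered was 7.97% and 4.17%. Among genes with a body of at least 20 kb, the medians were closer, 9.60 per 100 kb in 30 members and 7.66 per 100 kb in all. By family, the median was 5.48 per 100 kb for Mmp genes (0 in the cluster and 14.3 outside), 9.78 for Adamts, 18.7 for Adamtsl and 14.8 for Timp genes. These ranges overlapped, and with 4 and 5 genes the last 2 families give no more than single values.

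**Figure D5:**
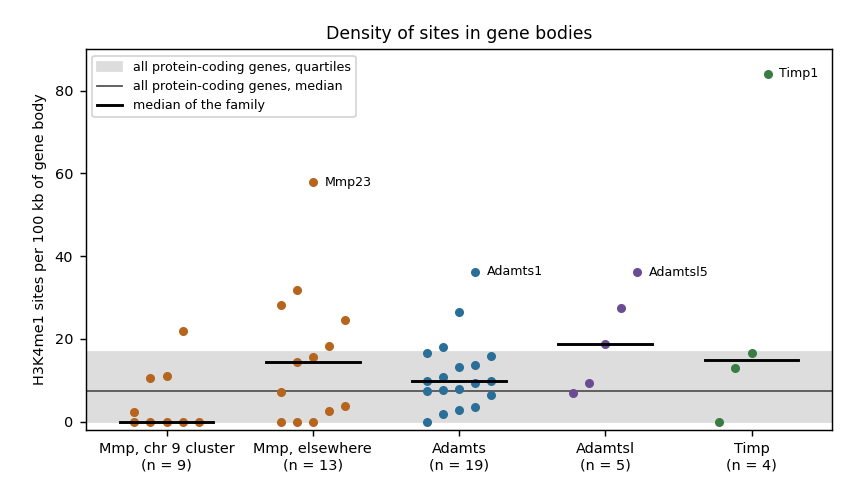
H3K4me1 sites per 100 kb of gene body (vertical axis), 1 point per gene by family, with the median of each family as a black bar and the quartiles of all protein-coding genes in grey. The median is 0 in the 9 genes of the chromosome 9 cluster, and the highest points, Timp1 and Mmp23, belong to very short bodies of 3569 and 1729 bp.

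The body sites were nearly all intronic. Of 449 sites centred in a body, 429 or 95.5% were in an intron, 10 in a UTR and 10 in another part of an exon, and 91.8% were intronic over all protein-coding genes. Over the 13 genes with bodies of at least 100 kb, 31.9% of 376 sites lay in the first of 4 equal parts of the body and 24.7, 20.5 and 22.9% in the following ones, compared with 28.2, 25.6, 23.8 and 22.3% in long protein-coding genes. Single genes departed from this in opposite ways. In Adamts20, Adamts12 and Adamtsl3, 63.2, 47.4 and 44.7% of sites lay in the first part. In Adamts6 and Adamtsl1, 62.5 and 41.2% lay in the last one.

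In the flanks a site was present for 48 of 50 genes, 96%, and for 85.1% of protein-coding genes. Mmp16 and Adamts3 were the 2 without. The median number was 9 (quartiles 7 and 14), and 8 (quartiles 3 and 13) over all protein-coding genes. Flank sites may belong to neighbouring genes, and the median was 5 when sites in other protein-coding genes and their promoters were left out. Sites were wider at promoters, with a median of 1963.5 bp, than in bodies, with 685 bp, and in the upstream and downstream flanks, with 603 and 712.5 bp. Wide promoter sites were also found outside the group. The widest site at a promoter had a median of 1576 bp over all protein-coding genes with a promoter site and 2104.5 bp over such members. The median over all sites was 603 bp. Sites of at least 5 kb made up 23 of the 957, or 2.40%, and 0.937% of all sites.

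Other genes that degrade or protect the matrix were counted in the same way. For comparison, 63.9% of all protein-coding genes had a promoter site, 93% of those with an island and 30% of those without. In the plasmin system, which activates several pro-MMPs, the activators Plau and Plat and the receptor Plaur had a promoter site without an island. Plg, Serpinf2, Serpinb2 and Serpine2 had none within 1 kb. Of the cathepsins and other proteases, 7 of 8 had a site, Ctss being the exception. Among regulators of MMPs 5 of 8 had one, including Reck, the membrane-anchored inhibitor, with 1619 bp covered and 11 body sites, while A2m, which encodes a plasma inhibitor, had its nearest site 260182 bp away. Of the proteoglycan substrates, Acan, Vcan and Bcan had a site and Ncan, which is neural, did not. The ADAM and astacin genes, relatives of the MMPs, had a site in 16 of 38 cases, 12 of 13 with an island and 4 of 25 without, the latter being Adam12, Adam18, Adam5 and Adam8.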

How the data were processed

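The deposited table, per the labels, comes from H3K4me1 ChIP-seq of 12 libraries with 2 inputs. According to the methods, the authors trimmed the reads, used BWA for alignment to mm10, merged the replicates after filtering and called broad peaks with MACS. Versions are not given in the sources used here. Its columns are positions in bases, with starts counted from 0, and coordinates printed here are counted from 1. The table holds no other column, so that no test was run and the depth is unknown.

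Members, gene lists and measures were chosen with earlier results of these data known. Named genes are the members, with values in full for the chromosome 9 cluster, the Timp genes and the 6 highest and 6 lowest of each other family by covered bases, genes that overlap or neighbour them, and the lists of other matrix-degrading genes, of which the plasmin system is not reported here as a count. Genes came from GENCODE M21 (M25, which the methods name, was not used here), and the sequence was GRCm38.p6. The promoter was ± 1 kb around the most upstream TSS, the body the rest of the gene, and the flanks 50 kb on each side, cut at the promoter. An overlap of 1 bp counted. CpG islands were called on repeat-masked sequence with scores of 17 per CpG and -1 per other base, over 200 bp, with GC of at least 50% and observed to expected CpG over 0.6, which gave 16099 islands. Sites on chromosomes were used (160108). Overlaps, coverage and distances equalled a direct count in 100% of 400 simulated windows or positions. Python 3.11.15, numpy 2.4.6, scipy 1.17.1, numba 0.67.0 and matplotlib 3.10.9 were used.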

Additional observations from a re-analysis of the deposited data

How the results depend on the processing

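The numbers of genes with a site in promoter, body and flanks, the median body density and number of flank sites, the chromosome 9 cluster and the division by islands were recomputed under other settings, 57 values in all, of which 49 stayed within 1.5 times the count or within the 95% interval of the share or median. Of the 8 others, the share of genes with a promoter site was 68% when the centre of a site had to lie in the window (56.0% of protein-coding genes). With sites of at least 500 bp only, the median density in bodies was 4.67 per 100 kb (4.08 in all protein-coding genes), the median number of flank sites 6 and the number of sites in the chromosome 9 cluster 13. The median number of flank sites was 4.5 with flanks of 20 kb, 21 with flanks of 100 kb and 5 without other protein-coding genes, each of which changes the length searched. With islands of at least 500 bp, 22 genes had a promoter site without an island. The ratio of the median body density of the members to that of all protein-coding genes was 1.35, and between 1.15 and 1.91 under alternatives that, like the count without the cluster, were chosen after seeing the data.

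Covered TSSs, reach, widths, motifs and positions within bodies were not recomputed. Leaving out 1 replicate at a time was not run. No paired analysis was possible because replicates are not told apart in the positions of sites. The sites were pooled over control and treated samples, and time points are not told apart. A gene without a site is one without a called peak, which at an unknown depth is not shown to lack H3K4me1.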
